A study of Mus musculus with 12 samples.

Results

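The genes described here encode 7 surface proteins by which an antigen-presenting cell passes activating or restraining signals to T cells. They were taken from the table by gene symbol (Cd40, Cd80, Cd86, Cd83, Cd274, Pdcd1lg2 and Icosl). They are 7 of the 31719 genes in the table, and each symbol was found once. RNA was sequenced from RAW264.7, a wild-type mouse macrophage-like cell line, in 4 groups of 3 libraries. The first group received LPS at 50 ng/ml together with anti-CD36 antibody, diluted 1 in 100 (LPS+anti-CD36), the second LPS alone (LPS), the third the antibody alone (anti-CD36), and the fourth neither (untreated). LPS, a component of bacterial envelopes, is sensed by TLR4. CD36 takes up oxidised lipids and long-chain fatty acids and acts as a scavenger receptor. No group given an isotype control antibody was used here, the labels gave no treatment time, and every library came from a single cell line. Whether the 3 libraries of each group stem from separate cultures is not in the labels either, so the p-values below reflect only how far these libraries spread. In RNA from whole cultures, fewer cells expressing a gene and less of its RNA per cell cannot be told apart.

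T cells need a second signal beside the antigen receptor. CD80 and CD86 give it by binding CD28, and they bind CTLA-4, a receptor that restrains T cells, more tightly; ICOS ligand gives a related signal through ICOS. PD-L1 and PD-L2, the products of Cd274 and Pdcd1lg2, bind PD-1 and damp T-cell responses, and PD-L1 also binds CD80 on the same cell surface. CD40 is a receptor of the TNF receptor family that is engaged by CD40 ligand on T cells and raises the antigen-presenting capacity of the cell that carries it, while CD83 keeps MHC class II and CD86 on the surface of dendritic cells. In macrophages TLR4 signalling is known to raise several of these genes through NF-kB and interferon.

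Because several of these genes moved together with LPS, the stretch before the start of transcription is shown for the 4 of 7 members that had an entry in the RefSeq promoter table (mouse build GRCm38.p6). Cd40, Cd86 and Cd83 are named only. All 4 lie on the plus strand. The windows were chr19:29367188-29367437 for Cd274, chr19:29410669-29410918 for Pdcd1lg2, chr16:38458683-38458932 for Cd80 and chr10:78069118-78069306 for Icosl. Each begins 250 bases before the RefSeq start. That of Icosl was shortened to 189 bases because of an annotated exon, of which it holds 5 bases. The Cd80 window lies inside the longer GENCODE M21 gene, outside its exons. Capitals mark matches, on either strand, to an NF-kB motif (GGG and CC with any 5 bases between) or an AP-1 motif (TGANTCA).
Cd80: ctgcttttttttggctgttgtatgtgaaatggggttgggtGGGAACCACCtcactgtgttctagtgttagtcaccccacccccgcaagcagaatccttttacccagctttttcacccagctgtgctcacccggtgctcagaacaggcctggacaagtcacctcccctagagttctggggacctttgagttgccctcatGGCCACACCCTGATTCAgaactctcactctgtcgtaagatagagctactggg
Icosl: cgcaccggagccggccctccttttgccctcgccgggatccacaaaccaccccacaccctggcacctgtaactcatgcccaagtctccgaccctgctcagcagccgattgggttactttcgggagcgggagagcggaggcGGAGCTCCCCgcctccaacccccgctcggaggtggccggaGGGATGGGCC
Cd274: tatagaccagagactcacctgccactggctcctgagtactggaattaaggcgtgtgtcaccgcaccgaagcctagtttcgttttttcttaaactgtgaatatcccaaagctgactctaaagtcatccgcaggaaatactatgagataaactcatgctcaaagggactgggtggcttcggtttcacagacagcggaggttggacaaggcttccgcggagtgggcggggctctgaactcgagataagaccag
Pdcd1lg2: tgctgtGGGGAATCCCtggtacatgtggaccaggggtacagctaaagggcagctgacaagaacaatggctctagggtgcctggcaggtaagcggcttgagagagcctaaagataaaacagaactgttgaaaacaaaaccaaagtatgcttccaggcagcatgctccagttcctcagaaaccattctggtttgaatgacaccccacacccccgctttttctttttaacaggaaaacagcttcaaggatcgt
Cd80 held 2 NF-kB matches, at −210 to −201 and, on the minus strand, at −52 to −43, and an AP-1 match next to the second, at −42 to −36. Icosl held NF-kB matches at −111 to −102 on the minus strand and at −71 to −62. Pdcd1lg2 held an NF-kB match on both strands at −244 to −235, and Cd274 held none of the letters searched in this window. In the whole windows of 300 bases, which run on past the start, none of the 4 held the interferon response letters (GAAA and GAAA with any 2 bases between) or the STAT letters (TTC and GAA with any 3 between). Of all 32851 such windows, 50.8% held the NF-kB letters, 7.81% the AP-1 letters, 8.30% the STAT letters and 3.44% the interferon response letters, so an NF-kB match is common. A match is a description of the letters only.

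Depth ran from 30070450 to 54137810 reads per library, as recovered from the steps of the FPKM values, which are read numbers scaled by gene length and library depth. The values of all 7 members were whole reads in every library. Between 14212 and 14878 genes were above 0 in a library. Of 8 macrophage markers, 7 averaged at least 1 FPKM in every group; the exception was Mertk, at no more than 0.0459 FPKM in any library. Of 10 dendritic cell markers, 1 (Itgax) averaged at least 1 FPKM in every group. The 5 B cell markers summed to 0.448 to 1.13 FPKM in LPS+anti-CD36 libraries, 0.518 to 0.946 in LPS libraries, 0.0459 to 0.387 in anti-CD36 libraries and 0.152 to 0.392 in untreated libraries, with Ms4a1 at 0 in every library. The 5 T cell markers in the table (of 6 listed) summed to no more than 0.0368 FPKM in any library, and the 4 fibroblast markers to no more than 0.0186 FPKM.

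Cd40, the receptor of the set (chromosome 2, 165055627 to 165072948, plus strand, GRCm38), stood at 32.9, 31.1 and 27.0 FPKM in the LPS+anti-CD36 libraries, 27.7, 21.8 and 18.3 FPKM in the LPS libraries, 0.379, 0.419 and 0.222 FPKM in the anti-CD36 libraries, and 0.353, 0.264 and 0.268 FPKM in the untreated libraries. Both groups with LPS lay far above both groups without it, while the 2 groups with LPS overlapped: LPS replicate 1 was above LPS+anti-CD36 replicate 3. The values rested on 2117 to 4474 reads per library with LPS and on 23 to 65 without it. By mean level Cd40 ranked 4 of 7 without LPS and 1 of 7 with it. It made up 35.4% of the summed member FPKM in LPS+anti-CD36 cells, 33.5% in LPS cells, 2.19% in anti-CD36 cells and 2.01% in untreated cells.

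Cd80, a ligand of CD28 and CTLA-4 (chromosome 16, 38455561 to 38496335, plus strand), stood at 21.2, 23.5 and 25.7 FPKM in LPS+anti-CD36 libraries, 12.9, 17.1 and 18.8 FPKM in LPS libraries, 4.36, 5.55 and 5.43 FPKM in anti-CD36 libraries, and 4.89, 4.84 and 6.11 FPKM in untreated libraries. The LPS+anti-CD36 libraries lay above the LPS libraries without overlap, and those above the groups without LPS, which overlapped each other. Cd86, the other ligand of CD28 (chromosome 16, 36603869 to 36666081, minus strand), stayed below 1 FPKM everywhere. It had 77, 88 and 108 reads in LPS+anti-CD36 libraries (0.571, 0.597 and 0.607 FPKM), 48, 36 and 40 reads in LPS libraries (0.406, 0.312 and 0.322 FPKM), 4, 8 and 16 reads in anti-CD36 libraries (0.0288, 0.0725 and 0.143 FPKM), and 6 reads in each untreated library (0.0303, 0.0545 and 0.0454 FPKM). As for Cd80, the LPS+anti-CD36 libraries lay above the LPS libraries and those above both groups without LPS. Within each library with LPS, Cd80 stood 31.8 to 58.3 times above Cd86. Without LPS, where Cd86 rested on 4 to 16 reads, the ratio of Cd80 to Cd86 ran from 37.9 to 161.5.

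Icosl, the ligand of ICOS (chromosome 10, 78069302 to 78083913, plus strand), stood at 4.22, 3.96 and 3.72 FPKM in LPS+anti-CD36 libraries, 2.77, 2.78 and 2.96 FPKM in LPS libraries, 0.199, 0.194 and 0.227 FPKM in anti-CD36 libraries, and 0.248, 0.187 and 0.318 FPKM in untreated libraries. The 4 groups showed the same steps as for Cd80, with no overlap between the 2 groups with LPS. Its spread was the narrowest of the members above 1 FPKM in LPS cells, with an SD of 3.69% of the mean.

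Cd83, which stabilises MHC class II and CD86 at the surface of dendritic cells (chromosome 13, 43784775 to 43803132, plus strand), stood at 25.4, 21.7 and 22.2 FPKM in LPS+anti-CD36 libraries, 23.0, 21.7 and 21.03 FPKM in LPS libraries, 8.85, 9.46 and 9.37 FPKM in anti-CD36 libraries, and 8.92, 8.21 and 7.40 FPKM in untreated libraries. It was the most abundant member without LPS, with 59.4% of the summed member FPKM in anti-CD36 cells and 55.8% in untreated cells. With LPS the groups overlapped each other and lay above both groups without it.

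Of the PD-1 ligands, Cd274 (chromosome 19, 29367455 to 29388095, plus strand) stood at 3.42, 3.85 and 5.27 FPKM in LPS+anti-CD36 libraries, 2.53, 4.01 and 3.98 FPKM in LPS libraries, 0.407, 0.605 and 0.562 FPKM in anti-CD36 libraries, and 0.484, 0.505 and 0.711 FPKM in untreated libraries. The groups with LPS overlapped each other, as did the groups without it, and the 2 pairs lay apart. Pdcd1lg2, the neighbouring gene (chromosome 19, 29410919 to 29471161, plus strand), had 1, 6 and 3 reads in LPS+anti-CD36 libraries, 4, 0 and 0 in LPS libraries, 0, 2 and 4 in anti-CD36 libraries, and 2, 4 and 2 in untreated libraries. At most 0.0760 FPKM, it lay near the 3 reads that a count of 0 allows, so a difference between groups was not detectable at this depth and no fold is given. Such a limit covers counting error only. It also takes reads as independent, which they were not here, so it can be too low.

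**Figure D1:**
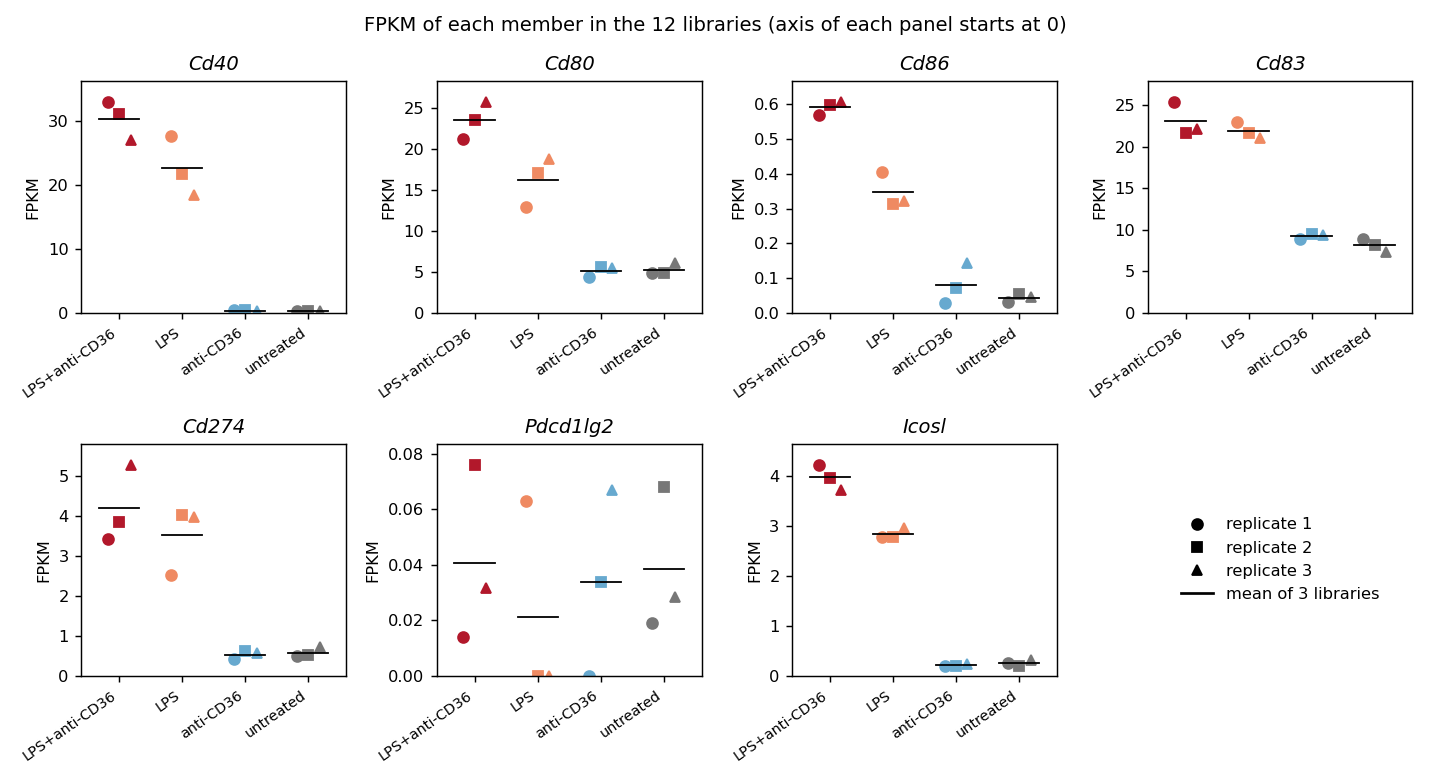
FPKM of the 7 genes in each of the 12 libraries, 1 panel per gene, with an FPKM axis of its own from 0; symbols are libraries, shaped by replicate number, and lines are group means. Cd40 averaged 30.4 FPKM in LPS+anti-CD36, 22.6 in LPS, 0.340 in anti-CD36 and 0.295 in untreated cells, while Pdcd1lg2 stayed at or below 0.0760 FPKM.

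The order of levels changed with LPS. FPKM is scaled by gene length, so levels of different genes can be set side by side. In LPS+anti-CD36 cells the order was Cd40 (30.4 ± 3.03 FPKM), Cd80 (23.5 ± 2.25), Cd83 (23.1 ± 2.01), Cd274 (4.18 ± 0.970), Icosl (3.96 ± 0.248), Cd86 (0.591 ± 0.0186) and Pdcd1lg2 (0.0404 ± 0.0320; SD, n = 3 libraries per group here and below). Libraries of Cd80 and Cd83, and of Cd274 and Icosl, overlapped there. In LPS cells the order was Cd40 (22.6 ± 4.73 FPKM), Cd83 (21.9 ± 0.989), Cd80 (16.3 ± 3.03), Cd274 (3.51 ± 0.847), Icosl (2.84 ± 0.105), Cd86 (0.347 ± 0.0512) and Pdcd1lg2 (0.0210 ± 0.0364), and Cd40 and Cd83, and Cd274 and Icosl, overlapped. The members summed to 85.7 FPKM in LPS+anti-CD36 cells, 67.5 in LPS cells, 15.5 in anti-CD36 cells and 14.6 in untreated cells. In anti-CD36 cells Cd83 (9.23 ± 0.326 FPKM) and Cd80 (5.12 ± 0.652) led, ahead of Cd274 (0.525 ± 0.104), Cd40 (0.340 ± 0.104), Icosl (0.207 ± 0.0180) and Cd86 (0.0816 ± 0.0579). Untreated cells had the same order, with Cd83 at 8.18 ± 0.762 FPKM, Cd80 at 5.28 ± 0.719, Cd274 at 0.567 ± 0.125, Cd40 at 0.295 ± 0.050, Icosl at 0.251 ± 0.0653 and Cd86 at 0.0434 ± 0.0122. Overlaps without LPS were between Cd40 and Icosl and between Cd86 and Pdcd1lg2 in both groups, and between Cd274 and Cd40 in anti-CD36 cells.

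**Figure D2:**
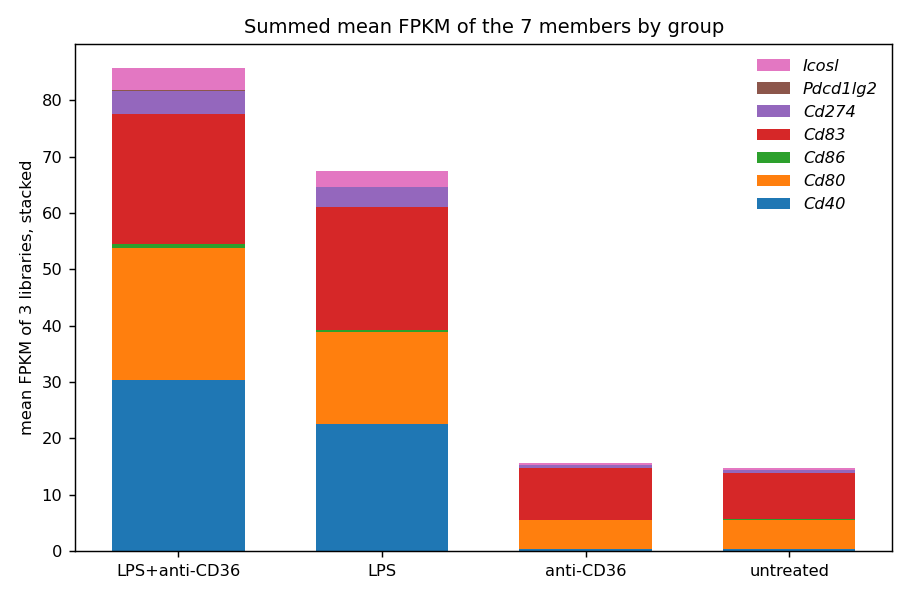
Summed mean FPKM of the 7 genes in each group (bar height), split by gene. The sums were 85.7 FPKM in LPS+anti-CD36, 67.5 in LPS, 15.5 in anti-CD36 and 14.6 in untreated cells; Cd83 and Cd80 filled most of the bar without LPS, and Cd40 joined them with LPS.

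Ratios taken within a library compare an activating with a restraining ligand free of that library's scaling. The ratio of Cd80 to Cd274 was 6.20, 6.11 and 4.88 in LPS+anti-CD36 libraries, 5.11, 4.26 and 4.72 in LPS libraries, 10.7, 9.17 and 9.67 in anti-CD36 libraries, and 10.1, 9.59 and 8.59 in untreated libraries. Every library with LPS lay below every library without it. Groups that differed by the antibody alone overlapped. Such a ratio shows unequal change and not which gene changed.

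LPS alone was compared with no treatment to show the response of the line to LPS. Changes are differences of group means in log2(FPKM + 1), which understate the change of genes at low levels, and calls are those with adjusted p below 0.05 in limma, over the 10276 genes that reached 1 FPKM in 3 or more libraries. In LPS cells Cd40 was higher by 4.17 (SE 0.13, adjusted p 3.18e-10), and its mean was 76.7 times that of untreated cells. Cd83 was higher by 1.32 (SE 0.09, adjusted p 1.5e-07, 2.68 times), Cd80 by 1.45 (SE 0.14, adjusted p 4.52e-06, 3.08 times), Icosl by 1.62 (SE 0.07, adjusted p 6.79e-09, 11.3 times) and Cd274 by 1.51 (SE 0.15, adjusted p 7.87e-06, 6.18 times). So 5 of the 7 members were tested and 5 were called higher, beside 16.6% of all genes tested called higher and 49.8% called in either direction. Of those 5, Cd40, Icosl and Cd274 passed the filter on low values only through the groups with LPS and therefore had to differ, so the count itself carries no weight; Cd80 and Cd83 passed in every group. Cd86 did not pass the filter. Tested without a filter, where 10.9% of 18142 genes were called higher, it was higher by 0.37 in LPS cells (SE 0.04, adjusted p 5.02e-05), with a mean 7.99 times that of untreated cells. The median gene was lower by 0.14 in LPS cells, and median-of-ratios scaling brought that to −0.01 and the split of calls to 2313 higher and 2245 lower, against 1710 and 3403 as deposited; the calls of the 5 members held under it.

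The summed dendritic cell markers moved with LPS too, at 4.39 to 4.68 FPKM in LPS libraries against 2.06 to 2.22 FPKM in untreated libraries, and most of it was Itgax. Batf3, Cd209a and Siglech were at 0 in all LPS libraries. The summed macrophage markers stood at 4144 to 5239 FPKM in LPS libraries and 3445 to 4412 FPKM in untreated libraries, and most of it was Lyz2. They did not move alike: of the 7 tested, 4 were called higher and 2 lower, beside 16.6% and 33.1% of all genes. Cd68 (333 to 430 FPKM in LPS libraries against 448 to 538 in untreated libraries) and Csf1r (153 to 175 against 207 to 224) lay lower with LPS. The summed B cell markers, below 1 FPKM in every LPS library, also stood above those of the untreated libraries. The part of these markers in the result was not tested.

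The antibody alone was compared with no treatment to show its effect without LPS. None of the 5 members tested was called by limma, and 0 reached an unadjusted p under 0.05, beside 0.341% of all genes called (35 of 10276, with 1969 at an unadjusted p under 0.05). The largest difference was that of Cd83, 0.16 (95% interval −0.03 to 0.35, adjusted p 0.314). Intervals were −0.24 to 0.33 for Cd40, −0.34 to 0.27 for Cd80, −0.38 to 0.30 for Cd274 and −0.21 to 0.11 for Icosl, so changes of that size are not excluded by these libraries. In the test without a filter Cd86 differed by 0.05 (−0.04 to 0.14, adjusted p 0.569), on 28 reads in anti-CD36 cells and 18 in untreated cells.

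LPS with the antibody was compared with LPS alone, which asks whether the antibody altered the level reached under LPS. Icosl was higher in LPS+anti-CD36 cells by 0.37 (SE 0.07, 95% interval 0.21 to 0.53, adjusted p 0.00709), Cd80 by 0.52 (SE 0.14, 0.21 to 0.82, adjusted p 0.0303) and Cd40 by 0.42 (SE 0.13, 0.14 to 0.71, adjusted p 0.0483). Their means were 1.40, 1.44 and 1.34 times those of LPS cells. Thus 3 of the 5 tested members were called higher, beside 7.34% of all genes called higher and 15.5% called in either direction. Cd274 differed by 0.20 (−0.13 to 0.54, adjusted p 0.364) and Cd83 by 0.07 (−0.12 to 0.26, adjusted p 0.57), and neither was called. Tested without a filter, where 3.41% of genes were called higher, Cd86 was higher by 0.24 (SE 0.04, adjusted p 0.00573), with a mean 1.71 times that of LPS cells, on 273 reads in LPS+anti-CD36 cells and 124 in LPS cells. In that same fit Icosl was called (adjusted p 0.00612), while Cd80 (0.0615) and Cd40 (0.095) were not. Cd80, Cd86 and Icosl did not overlap between the groups. Of the 10276 genes that passed the filter, 19.7% had all 3 LPS+anti-CD36 libraries above all 3 LPS libraries. Cd86 is not among those genes.

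How firmly these calls stood differed between the genes. The Icosl call held in each of the 12 fits that left out 1 library. The Cd80 call was lost without LPS+anti-CD36 replicate 1, 2 or 3 (adjusted p 0.0557, 0.094 and 0.0964) and without LPS replicate 2 (0.0721). The Cd40 call held only without LPS replicate 1 (adjusted p 0.00415) or untreated replicate 3 (0.0466); without any other single library its adjusted p was 0.0537 to 0.179, so Cd40 sat at the threshold. With every library rescaled to the same total (TPM), adjusted p was 0.101 for Icosl, 0.169 for Cd80 and 0.147 for Cd40. None of the 3 was called. TPM values were also larger than the FPKM, so the pseudocount of 1 weighed less, and the rescaling was not tested apart from that. With a pseudocount of 0.1 in place of 1, adjusted p was 0.065 for Icosl, 0.136 for Cd40 and 0.0368 for Cd80, so only Cd80 was called. The summed dendritic cell markers also stood higher with the antibody, at 5.49 to 6.32 FPKM in LPS+anti-CD36 libraries against 4.39 to 4.68 FPKM in LPS libraries. Most of it was Itgax (4.35 to 4.44 FPKM against 3.46 to 3.96), the only 1 tested, which was not called. Ccr7 and Fscn1 lay higher without overlap, below 1 FPKM, while Zbtb46 and Xcr1 overlapped. Batf3, Cd209a and Siglech were at 0 in both groups. The part of these genes in the result was not tested.

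**Figure D3:**
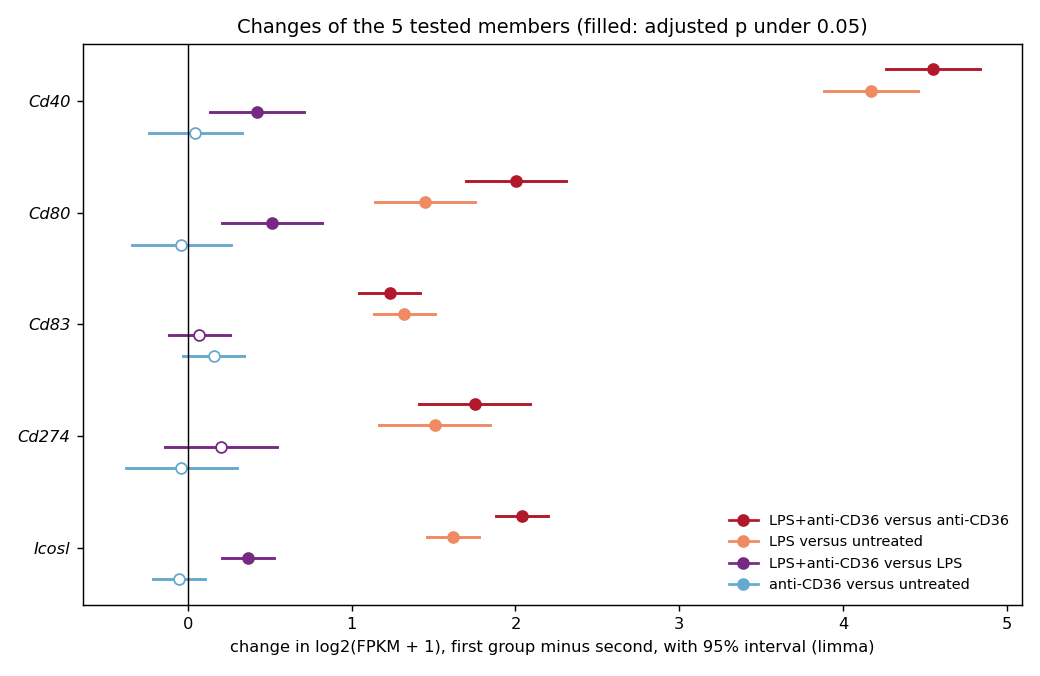
Differences of group means in log2(FPKM + 1) for the 5 tested genes in each comparison; points are estimates, filled where called, and lines 95% intervals. With LPS against without it every interval lies above 0, the antibody alone gives intervals that span 0, and LPS+anti-CD36 against LPS gives intervals above 0 for Cd40, Cd80 and Icosl.

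LPS with the antibody was also compared with the antibody alone, which gives the LPS response in the presence of the antibody. This comparison shares the LPS+anti-CD36 libraries with the one before and none with LPS against untreated. Cd40 was higher by 4.55 in LPS+anti-CD36 cells (SE 0.13, adjusted p 1.3e-10; 89.3 times the mean of anti-CD36 cells), Icosl by 2.04 (SE 0.07, adjusted p 8.46e-10, 19.2 times), Cd80 by 2.00 (SE 0.14, adjusted p 2.8e-07, 4.59 times), Cd274 by 1.75 (SE 0.15, adjusted p 2.26e-06, 7.97 times) and Cd83 by 1.23 (SE 0.09, adjusted p 2.7e-07, 2.50 times). All 5 tested members were called higher, beside 16.3% of all genes called higher and 47.5% in either direction, with the same limit from the filter for Cd40, Icosl and Cd274. The median gene changed by −0.12 here. Median-of-ratios scaling gave 2248 genes higher and 2217 lower, against 1670 and 3212 as deposited. The shares set beside the gene lists below are those as deposited. Cd86, tested without a filter, where 10.8% of genes were called higher, was higher by 0.56 (SE 0.04, adjusted p 2.59e-06).

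The interaction tests whether the LPS response with the antibody differed from that without it. None of the 5 members was called by limma, and 2 reached an unadjusted p under 0.05, beside 1.28% of all genes called (132, with 884 at an unadjusted p under 0.05). The difference was 0.42 for Icosl (95% interval 0.20 to 0.65, adjusted p 0.0933) and 0.55 for Cd80 (0.12 to 0.98, adjusted p 0.358). It was 0.38 for Cd40 (−0.03 to 0.78, adjusted p 0.635), 0.24 for Cd274 (−0.24 to 0.72) and −0.09 for Cd83 (−0.35 to 0.17). Thus the calls of LPS+anti-CD36 against LPS, next to no call for the antibody alone, are not shown to differ.

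Within a group the members did not vary alike from library to library. Replicate 1 was the lowest of its group for Cd274 in 4 of 4 groups and for Cd80 in 3 of 4, while it was the highest for Cd40 and for Cd83 in 3 of 4. In LPS and in LPS+anti-CD36 cells the libraries stood in opposite order for Cd80 and for Cd40. The transcripts of Cd80 (42.7% GC) and Cd274 (44.9%) hold less G and C than those of Cd40 (48.8%) and Cd83 (51.8%). Icosl, with the most (52.5%), did not follow that order: its replicate 1 was the highest in 1 of 4 groups and the lowest in 1, and its replicate 3 the highest in 3. The slope of a library's log2 values on GC content was steepest upwards in replicate 1 in 4 of 4 groups, at 0.07 in LPS+anti-CD36, 0.25 in LPS, 0.12 in anti-CD36 and 0.12 in untreated cells per 10 points of GC. With the GC and length trend of each library removed, LPS+anti-CD36 against LPS gave adjusted p values of 0.000192 for Cd80, 0.00682 for Icosl and 0.0593 for Cd40, so Cd40 was then not called, and the interaction was called for Cd80 (adjusted p 0.0123) and Icosl (0.0435).

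**Figure D4:**
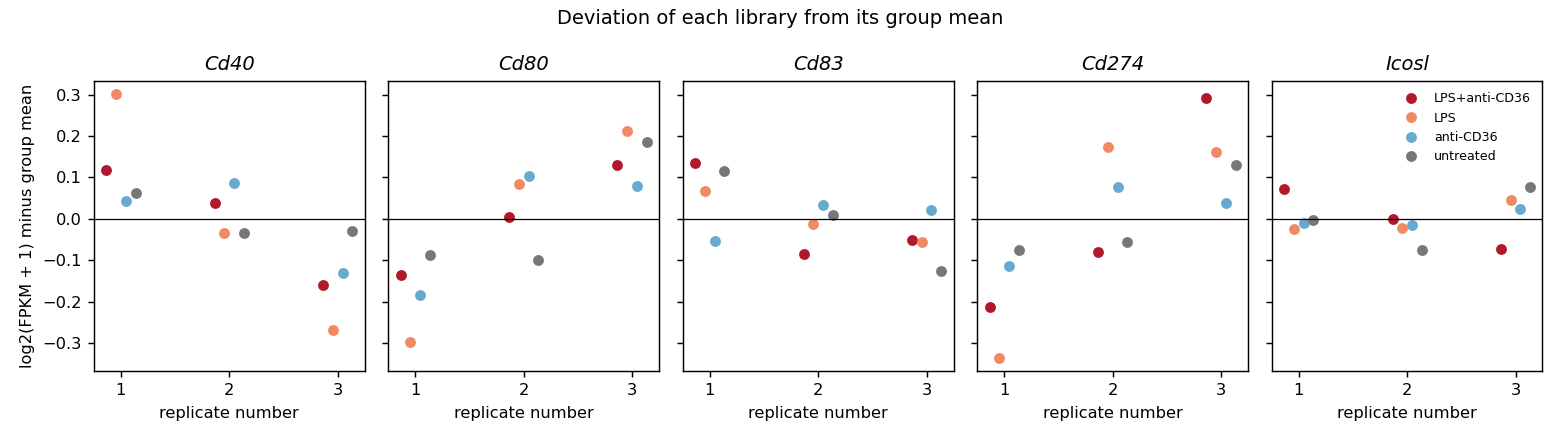
Deviation of each library from its group mean in log2(FPKM + 1) (vertical axis) for the 5 tested genes, by replicate number; colours are groups. Replicate 1 lies lowest for Cd274 in 4 of 4 groups and for Cd80 in 3 of 4, and highest for Cd40 and Cd83 in 3 of 4.

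Of 20 other ligands of T-cell costimulatory and checkpoint receptors, 11 were tested. In LPS against untreated cells 7 rose and 1 fell, with a median change of 0.87, beside 16.6% of all genes tested called higher and 33.1% called lower. Tnfsf15, a TNF-family ligand of T cells, rose by 4.63 and stood at 30.0 ± 11.8 FPKM in LPS cells against 0.188 ± 0.0877 in untreated cells (adjusted p 1.02e-08). It passed the filter only through the groups with LPS and so had to differ. Lgals9, which encodes galectin-9, a ligand of TIM-3, rose by 2.42, at 164.5 ± 24.4 FPKM against 29.9 ± 4.05 (adjusted p 1.33e-08). Vsir, which encodes the restraining ligand VISTA, rose by 1.48, at 24.0 ± 1.37 FPKM against 7.94 ± 0.370 (adjusted p 1.04e-08). Cd276, which encodes B7-H3, fell by 1.46, at 2.70 ± 0.476 FPKM against 9.17 ± 1.01 (adjusted p 4.2e-07). With the antibody alone 0 of the 11 were called, beside 0.341% of all genes, and 1 reached an unadjusted p under 0.05, beside 1969 of 10276.

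Of those 11 ligands 0 rose and 2 fell in LPS+anti-CD36 against LPS cells, with a median of −0.01, beside 7.34% of all genes called higher and 8.14% lower. Under TPM scaling, and likewise with the GC and length trend removed, 4 fell. Pvr, a ligand of CD226 and TIGIT, fell by 0.66, at 7.11 ± 0.536 FPKM in LPS+anti-CD36 cells against 11.8 ± 0.933 in LPS cells (adjusted p 0.00632, called in 12 of 12 fits without 1 library). Tnfsf15 fell by 0.86, at 15.3 ± 1.47 FPKM against 30.0 ± 11.8 (adjusted p 0.0238). That call held in 8 of 12 such fits and was lost without LPS+anti-CD36 replicate 1 or 2 or LPS replicate 2 or 3, with adjusted p up to 0.0916. Of the same ligands 8 rose and 2 fell in LPS+anti-CD36 against anti-CD36 cells, beside 16.3% and 31.3% of all genes. Tnfsf15 (3.77), Lgals9 (2.32), Vsir (1.59) and Cd276 (−1.65) had the sign they had in LPS against untreated cells.

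**Figure D5:**
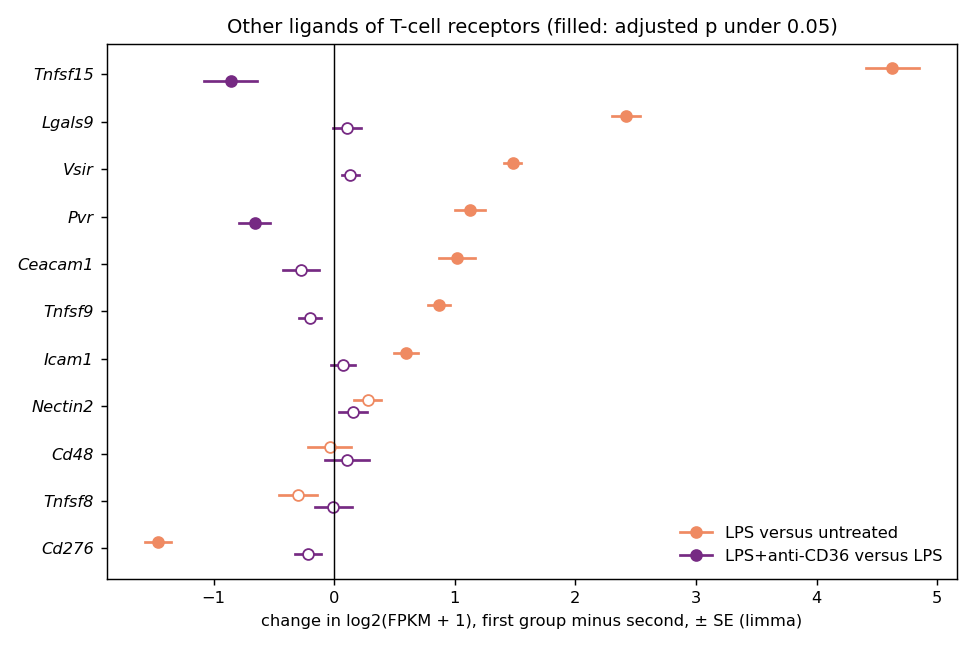
Change in log2(FPKM + 1) ± SE of the 11 tested other ligands (horizontal axis) in LPS against untreated cells and in LPS+anti-CD36 against LPS cells; filled points passed an adjusted p of 0.05. Tnfsf15 and Pvr lie above 0 for LPS and below 0 for the antibody added to LPS, and Cd276 lies at −1.46 for LPS.

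Of 14 receptors that T cells carry for these ligands, 5 were tested. Pdcd1, which encodes PD-1, the receptor of PD-L1, was the most abundant: 37.8 ± 3.27 FPKM in LPS+anti-CD36 cells, 33.8 ± 3.04 in LPS cells, 14.7 ± 1.65 in anti-CD36 cells and 12.2 ± 1.17 in untreated cells. It rose by 1.40 in LPS against untreated cells (adjusted p 6.59e-07) and by 1.31 in LPS+anti-CD36 against anti-CD36 cells (adjusted p 1.24e-06). So the receptor stood above its ligand Cd274 in all 4 groups, while the T cell markers were near 0. Tnfrsf9, which encodes 4-1BB, rose by 1.26 in LPS cells (adjusted p 3.8e-07). Havcr2, which encodes TIM-3, fell by 1.41 (adjusted p 2.3e-06) and Icos by 0.75 (adjusted p 1.23e-05). So 2 rose and 2 fell, beside 16.6% and 33.1% of all genes; Icos passed the filter only through the groups without LPS and so had to differ. In LPS+anti-CD36 against LPS cells 0 of the 5 were called, beside 15.5% of all genes (1 riser under median-of-ratios scaling, 1 faller with the GC and length trend removed). There 2 reached an unadjusted p under 0.05, beside 3472 of all 10276 genes. With the antibody alone 0 were called, beside 0.341% of all genes, and 3 reached that p, beside 1969 of 10276. In LPS+anti-CD36 against anti-CD36 cells 2 rose and 3 fell, beside 16.3% and 31.3% of all genes. The additional faller was Tnfrsf4, which encodes OX40 (a fall of 0.63, adjusted p 0.000224, named after its values were seen, and past the filter only through the groups without LPS).

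Of 10 genes of MHC class II and its turnover, 3 were tested. Cd74, the invariant chain that escorts class II molecules, rose by 0.85 in LPS cells, at 143.4 ± 19.8 FPKM against 78.5 ± 4.58 in untreated cells (adjusted p 2.49e-05). H2-DMa, which acts in the loading of peptides onto class II molecules, fell by 0.29 (adjusted p 0.0432). It passed the filter only through the groups without LPS, and the call held in 3 of 12 fits without 1 library: those without LPS replicate 2, untreated replicate 1 or untreated replicate 3. Under median-of-ratios scaling, and with the GC and length trend removed, the call was lost. In the main fit 1 of the 3 rose and 1 fell, beside 16.6% and 33.1% of all genes. Among the genes not tested, Ciita, the master regulator of class II genes, reached no more than 0.0138 FPKM in any library. The highest library was at 0.114 FPKM for H2-Aa, 0.284 for H2-Ab1, 1.05 for H2-Eb1 and 0.861 for H2-Oa. It was at 0.0220 FPKM for H2-DMb1 and 0.112 for Marchf1. Of the 3 tested, 0 were called in LPS+anti-CD36 against LPS cells, beside 15.5% of all genes (1 fell under median-of-ratios scaling and 2 with the GC and length trend removed). At an unadjusted p under 0.05 there was 1, beside 3472 of all 10276 genes. With the antibody alone 0 were called, beside 0.341% of all genes, and 2 were at an unadjusted p under 0.05, beside 1969 of 10276. Against anti-CD36 cells, Cd74 in LPS+anti-CD36 cells rose by 0.58 (adjusted p 0.00054) and H2-DMa fell by 0.34 (adjusted p 0.0218). That was 1 riser and 1 faller of the 3, beside 16.3% and 31.3% of all genes. The H2-DMa call held in 7 of 12 fits and was lost without LPS+anti-CD36 replicate 1 or 3 or any 1 anti-CD36 library, and again under both of those settings.

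All 11 genes of CD40 signalling were tested. In LPS against untreated cells 6 rose and 2 fell, with a median of 0.51, beside 16.6% and 33.1% of all genes. The adaptor Traf1 rose by 2.16 (14.6 ± 1.35 FPKM in LPS cells against 2.49 ± 0.322 in untreated cells, adjusted p 3.8e-09). Tnfaip3, which encodes the NF-kB brake A20, rose by 1.62 (adjusted p 1.81e-07). Nfkb2, which encodes the p100 subunit of the alternative NF-kB pathway, rose by 1.57 (adjusted p 2.46e-07), and Birc3 by 1.54 (adjusted p 1.94e-05). With the antibody alone 0 were called, beside 0.341% of all genes, with 2 at an unadjusted p under 0.05, beside 1969 of 10276. Cd40lg, which encodes the CD40 ligand, reached no more than 0.0508 FPKM in any library. Whether CD40 itself signalled was not tested.

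Of the CD40 signalling genes 4 rose and 1 fell in LPS+anti-CD36 against LPS cells, with a median of 0.24, beside 0.02 over all genes, of which 7.34% rose and 8.14% fell. Nfkb2 rose by 0.68, at 32.3 ± 2.21 FPKM in LPS+anti-CD36 cells against 19.8 ± 2.33 in LPS cells (adjusted p 0.00214), and Tnfaip3 fell by 0.53, at 4.25 ± 0.192 FPKM against 6.59 ± 0.594 (adjusted p 0.00842). Both calls held in 12 of 12 fits without 1 library. Traf1 rose by 0.42 (adjusted p 0.0116, held in 10 of 12 fits, lost without LPS+anti-CD36 replicate 1 or LPS replicate 2). Traf5 rose by 0.31 (adjusted p 0.0219, held in 8 of 12, lost without LPS+anti-CD36 replicate 1 or 2 or LPS replicate 2 or 3). The remaining riser, Map3k14, which encodes the kinase NIK, rose by 0.35 (adjusted p 0.0456). Named after its values were seen, it held in 2 of 12 fits, without LPS replicate 1 or untreated replicate 3. Under TPM scaling 2 rose and 1 fell. The comparison with anti-CD36 cells gave 7 higher and 0 lower in LPS+anti-CD36 cells (16.3% and 31.3% of all genes), among them Traf1 (2.32), Nfkb2 (2.12), Tnfaip3 (1.20) and Traf5 (0.76).

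All 14 known regulators of PD-L1 were tested. In LPS against untreated cells 5 rose and 2 fell, with a median of 0.18, beside 16.6% and 33.1% of all genes. Myc rose by 2.90, at 7.86 ± 0.969 FPKM in LPS cells against 0.187 ± 0.0563 in untreated cells (adjusted p 3.41e-10); it passed the filter only through the groups with LPS and so had to differ. The interferon signalling factor Stat2 rose by 1.53 (adjusted p 2.71e-08), Nfkb1 by 0.88 (adjusted p 8.66e-07) and Stat3 by 0.64 (adjusted p 3.43e-05). With the antibody alone 0 were called, beside 0.341% of all genes, with 3 at an unadjusted p under 0.05, beside 1969 of 10276. In LPS+anti-CD36 against LPS cells 0 rose and 3 fell, with a median of −0.12, beside 7.34% and 8.14% of all genes. Under TPM scaling 2 fell, and with the GC and length trend removed 1 rose and 4 fell. Myc fell by 0.51, at 5.19 ± 0.440 FPKM against 7.86 ± 0.969 in LPS cells (adjusted p 0.00429, held in 12 of 12 fits without 1 library). Stat2 fell by 0.29 (adjusted p 0.0361, held in 6 of 12 fits, lost without any 1 LPS+anti-CD36 library, LPS replicate 2 or 3, or anti-CD36 replicate 3). Hif1a, which encodes the oxygen-regulated transcription factor HIF-1 alpha, fell by 0.58 (adjusted p 0.0412, held in 5 of 12, lost without those 6 libraries or untreated replicate 2). With the antibody alone Hif1a differed by −0.58 too, at 40.7 ± 5.92 FPKM against 61.8 ± 13.05 in untreated cells. That was not called (adjusted p 0.148), and its interaction was 0.001, so the fall is not shown to depend on LPS. Cd274 itself was not called in that comparison. In LPS+anti-CD36 against anti-CD36 cells 6 rose and 3 fell (16.3% and 31.3% of all genes), led by Myc (2.46), Stat2 (1.37), Nfkb1 (1.03) and Stat3 (0.54).

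The genes whose pattern was most like each member were sought by the root mean square difference in log2(FPKM + 1) over the 12 libraries, each gene centred on its mean. For Cd40 these were Socs3 (0.125), Tnf (0.196) and Isg20 (0.203), while Cd40 itself spanned 4.80 between its lowest and highest library. For Cd80 they were Fas (0.104), Serpinb2 (0.127) and Irak3 (0.134), over a span of 2.32. For Icosl they were Itgal (0.0960), Smim3 (0.126) and Ptgir (0.132), over 2.14. For Cd83 they were Npl (0.0837), Prmt2 (0.0913) and Slc6a4 (0.0937), over 1.65, and for Cd274 Tlr1 (0.112), Evi2a (0.126) and Spp1 (0.127), over 2.16. These are descriptions of likeness in these 12 libraries. Because 1 is added to each FPKM, genes at unlike levels can be near on this scale and still differ in fold. Fas averaged 3.8 FPKM in LPS+anti-CD36 cells and 0.130 in anti-CD36 cells, where Cd80 averaged 23.5 and 5.12.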

How the data were processed

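The values were the authors' deposited FPKM, 1 column per library, in a table of 31801 entries named by gene symbol. HISAT2 2.0.5 is named in the submitters' processing notes, which list the builds mm39 and hg38 and give no roles. The counting tool, annotation and filters are not given in the sources used here. No column was left unused (0). Repeats of a symbol (82) were dropped in favour of the entry of highest mean. The Il6 row was left out because its untreated and anti-CD36 values were those of Gm10874.

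At the exon-union length of GENCODE M21, 94.7% of 17615 entries above 0 (16677) were whole multiples of 1 read in every library, within 0.01 of a read, and the depths above come from these steps. Genes at 2 reads (694 to 814 per library) outnumbered those at 1 (285 to 437) or 3 (117 to 222), so reads are not independent molecules. The limit that a count of 0 allows takes them as independent, so it can be too low, and it covers counting error only. The 95% intervals of changes come from the spread between libraries.

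Values were analysed as log2(FPKM + 1) with limma 3.58.1 in R 4.3.3. The model held the 4 group means, with an intensity trend and no replicate block, over the 10276 genes that reached 1 FPKM in 3 or more of 12 libraries. P-values were Benjamini-Hochberg adjusted over all genes tested, per comparison. The fit was tested on simulated data. Those libraries were drawn independently, without replicate or GC structure, so that test does not cover the structure seen here. Tables were handled with Python 3.11.15, pandas 2.3.3 and numpy 2.4.6. Alternatives were other pseudocounts, filters and scalings, no intensity trend, a replicate block, GC and length trend removal, only the groups compared, and each library left out.

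The members and gene lists were chosen with earlier results of these data known. The text names every member, up to 4 called genes of smallest p per list and pairwise comparison, and the 3 genes nearest in pattern to each tested member, leaving out predicted genes; exceptions are stated.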

Additional observations from a re-analysis of the deposited data

How the results depend on the processing

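The calls of the 5 tested members held under every alternative in LPS against untreated and in LPS+anti-CD36 against anti-CD36 cells, except that 3 were called in each where genes needed 5 FPKM, since Cd274 and Icosl were then not tested. In LPS+anti-CD36 against LPS cells, 1 member was called with a pseudocount of 0.1, 0 under TPM scaling, 1 in a fit of the 2 groups alone, and 1 to 3 with single libraries left out. In the interaction 1 was called with the replicate block, 2 with the GC and length trend removed and 2 with both.

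Over all genes, the antibody alone gave 35 calls, against 16 under TPM scaling, 1164 with the replicate block, 430 with the GC and length trend removed, 997 with both, 0 in a fit of the 2 groups alone and 1 to 131 with single libraries left out. LPS+anti-CD36 against LPS gave 1590 calls, against 3645 with the block, 2509 with the trend removed, 3635 with both, 939 in the 2 groups alone and 582 to 3977 with single libraries left out. The interaction gave 132, against 85 above 5 FPKM, 212 with the block, 402 with the trend removed, 559 with both and 77 to 161 with single libraries left out.

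Signs turned round only among changes not called. With the antibody alone Cd80 stood at 0.0514 and Cd274 at 0.0202 with the trend removed, with or without the block, and at −0.0898 to 0.0547 and −0.0768 to 0.0262 with single libraries left out. Against LPS, Cd83 stood at −0.0396 under TPM scaling and −0.0763 with the trend removed, with or without the block. Of 535 results for single members, 494 kept direction and side of the threshold, 25 lost the call (all in LPS+anti-CD36 against LPS), 5 gained it (all in the interaction) and 11 turned round. The cause was not tested.

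The replicate numbers were not taken as pairing the libraries, because the labels do not say that a number marks a shared batch. Deviations of same-numbered libraries from their group means correlated by 0.45 to 0.78 in replicate 1, −0.32 to 0.43 in replicate 2 and −0.07 to 0.81 in replicate 3. So the libraries of replicate 1 deviated alike in all groups. Those of replicate 3 did so in LPS+anti-CD36, LPS and untreated cells (0.54 to 0.81), but not with anti-CD36 cells (−0.07 to 0.03). The main fit did not model this, and the cause was not tested. With the replicate block, adjusted p in LPS+anti-CD36 against LPS was 0.00134 for Cd80, 0.00553 for Cd40 and 0.00523 for Icosl, and 5 PD-L1 regulators fell in place of 3. Depth limits Cd86 without LPS, at 4 to 16 reads per library, and Pdcd1lg2 throughout.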
